A study of Homo sapiens with 4 samples.

Results

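Untreated cells of 2 human liver cancer lines, HepG2 and PLC/PRF/5, were compared by RNA sequencing, and the question was how the lines differ before any drug is added. The comparison covers 12342 nuclear genes, 10982 protein-coding and 1360 long noncoding (lncRNA), of 32479 genes in the deposited table. A gene was included where it reached 1 FPKM (fragments counted per gene, scaled to gene length and library total) in at least 1 of the 2 control libraries, a rule that uses the level and not the difference between the lines. HepG2 is derived from a hepatoblastoma, a childhood liver tumor, and PLC/PRF/5 from an adult hepatocellular carcinoma whose genome carries integrated hepatitis B virus DNA. The labels give both lines as wild type and as liver cancer cells, grown in the same serum-supplemented medium. Each line gave 1 untreated control harvested at 24 h and 1 culture kept for 24 h with 20 uM PF429242, an inhibitor of site-1 protease. There is therefore 1 library per group, no test between the lines was possible, and every difference below is one between libraries. The treated pair is given as a second reading of each difference, in separate libraries and under another condition, and not as a replicate.

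Hepatocytes make most plasma proteins, clear bile acids and drugs, dispose of ammonia as urea, and package lipid into lipoproteins, under a set of nuclear factors led by HNF4A, FOXA and C/EBP proteins. Fetal liver and liver tumors add oncofetal genes such as AFP and GPC3, and hepatoblastoma is known for activated beta-catenin signaling. HepG2 is known to carry an activating deletion in the beta-catenin gene CTNNB1, which was not read from these data, since they hold expression values alone.

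Both controls carried the markers of the labelled cell type. Of 22 hepatocyte markers, 19 were at 1 FPKM or more in each control, and the drug-metabolizing cytochromes CYP3A4 and CYP2E1 were among those below it in both. Markers of bile duct cells were expressed in part, 7 of 11 at 1 FPKM or more in the HepG2 control and 8 in the PLC/PRF/5 control, summing to 387 and 244 FPKM. Among them were EPCAM, SPP1, SOX9, CD24 and KRT19, several of which are also listed as progenitor genes below. The bile duct markers KRT7, MUC1 and AQP1 were below 1 FPKM in both controls, and CFTR was at 0 and 4.90 FPKM. Of 7 intestinal markers, 2 and 3 reached 1 FPKM, with the brush-border protein VIL1 at 53.8 and 18.3 FPKM and MUC2 at 0 and 11.2 FPKM in the HepG2 and PLC/PRF/5 controls. Of 9 stellate cell and fibroblast markers, ACTA2 alone reached 1 FPKM in either control, and CD3E, CD68, DES and LUM were at 0 in both. Of 7 blood and Kupffer markers, LYZ alone was high, at 504 and 179 FPKM, and of 5 endothelial markers PECAM1 alone reached 1 FPKM, in PLC/PRF/5. What these markers contribute to the results was not tested. Total counted fragments were 16722204 in the HepG2 control and 21387301 in the PLC/PRF/5 control, of which 16.6% and 21.3% were mitochondrial, and 20350701 and 16982560 in the treated pair. At these depths 3 fragments on a gene of 1 kb correspond to 0.179 and 0.140 FPKM in the controls. Intervals below are exact 95% Clopper-Pearson intervals of the ratio of recovered fragments and cover counting error only.

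The controls differed in how far the lower line's level went down, and this bears on every ratio that follows. Among protein-coding genes with at least 5 FPKM in one line and at most 0.25 of that level in the other, 274 were high in HepG2 and 363 in PLC/PRF/5. Of the 363, 114 (31.4%) were under 1% of the PLC/PRF/5 level in HepG2 and 66 were at 0. Of the 274, 1 (0.365%) was under 1% of the HepG2 level in PLC/PRF/5 and none was at 0. The ratio of PLC/PRF/5 to HepG2 had a median of 0.156 in the 274 genes, with a 10th percentile of 0.0827 and a 90th of 0.233. In the treated PLC/PRF/5 library 254 of these 274 genes were above the PLC/PRF/5 control, by a median factor of 1.61, whereas 30 of the 274 were above the control in treated HepG2. The 274 were chosen for a low PLC/PRF/5 control, which favors a rise in a second PLC/PRF/5 library. Of the 363, chosen for a low HepG2 control, 72 were above it in treated HepG2, with a median factor of 0.822. Genes at 0 in the HepG2 control, 66 of the 363, were left out of both figures. The share of all genes above the control in each treated library is not given here. Nuclear protein-coding genes held 81.6% and 76.0% of fragments in the HepG2 and PLC/PRF/5 controls, and 70.6% and 68.1% in the treated libraries. FPKM is scaled to the library total, and what that shift contributes to the counts above was not tested. For the 274 genes the median ratio in the treated pair was 0.300, against 0.156 in the controls. The collagen gene COL2A1 had the lowest ratio, with 23.3, 10.2, 0.126 and 0.0795 FPKM in the HepG2 control, treated HepG2, PLC/PRF/5 control and treated PLC/PRF/5, the order of every run of 4 values below. Whether such low transcripts were made by the PLC/PRF/5 cells or by other cells in the library cannot be told apart. In these bulk samples fewer expressing cells and less RNA per cell cannot be told apart either. When 8% of the HepG2 level was subtracted from the PLC/PRF/5 control, a share chosen after the data were seen, 1497 genes were higher in HepG2 and 1409 lower. Genes already under 8% of the HepG2 level, COL2A1 among them, were set to 0 in that setting. It shows how the counts move and tests no source of the low transcripts.

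**Figure D1:**
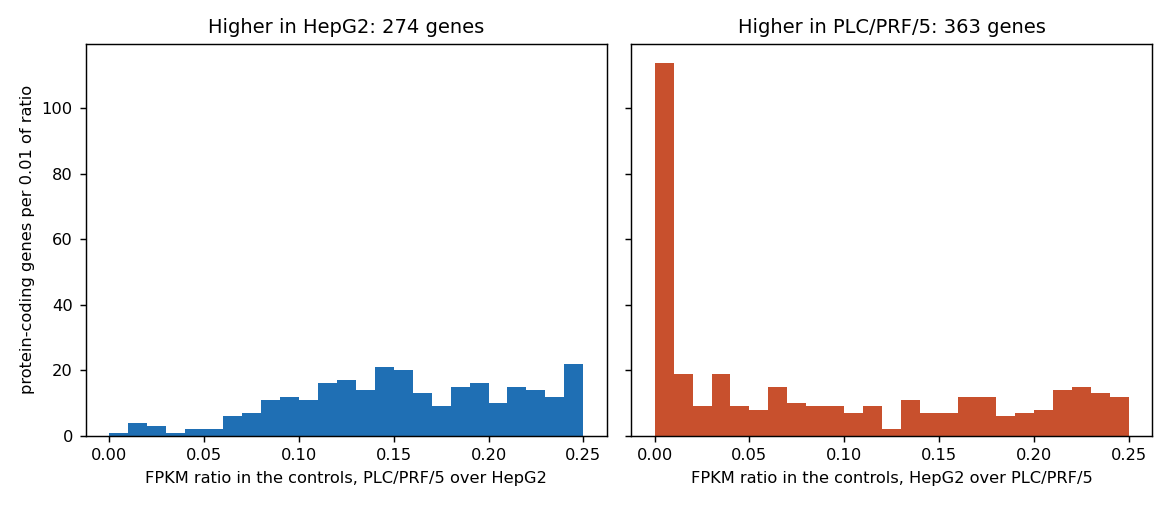
Protein-coding genes with at least 5 FPKM in the higher control and at most 0.25 of that in the lower one, by the ratio of the lower to the higher control (x axis, bins of 0.01) and number of genes (y axis), for the 274 genes higher in HepG2 (left) and the 363 higher in PLC/PRF/5 (right). The right panel has 114 genes in its first bin, and the left panel has 1.

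By the log2 ratio of (FPKM + 1), which understates the difference of low genes, 1101 genes (8.92%) were higher in HepG2 by 2-fold or more and 1480 (12%) were lower. The median over all genes was -0.06, the correlation of the controls across genes was 0.802 (Pearson, genes not being independent), and 7247 genes (58.7%) lay within 1.5-fold. A gene that reached 1 FPKM in one control alone, as 996 did in HepG2 and 1463 in PLC/PRF/5, was lower in the other control by that rule. Among the 9883 genes at 1 FPKM or more in both controls, 726 (7.35%) passed 2-fold toward HepG2 and 621 (6.28%) toward PLC/PRF/5, so that the order of the counts was the opposite. List counts below are therefore followed by those over genes at 1 FPKM or more in both controls. Counts over a whole list are to be read against the 8.92% and 12% of all genes. Counts at 1 FPKM or more in both controls are to be read against 7.35% and 6.28%. Among lncRNAs 175 (12.9%) were higher and 195 (14.3%) lower. At 4-fold the counts were 207 (1.68%) and 419 (3.39%), and at 16-fold 3 and 61. Of the 1101 higher genes, 1085 (98.5%) had both HepG2 libraries above both PLC/PRF/5 libraries, an order that 33% of all genes had. For the 1480 lower genes the count was 1464 (98.9%), against 41.9% of all genes. Both sets were chosen by the difference of the same 2 controls, which fixes part of this order in advance. The shares are therefore a description and not a separate check of the difference. In the treated pair 575 genes (4.84%) were higher in HepG2 by 2-fold or more and 1274 (10.7%) lower, among 11892 at 1 FPKM or more there. The 2-fold difference itself was met again by 516 of the 1101 (46.9%) and by 1136 of the 1480 (76.8%). When values were rescaled to equal sums (TPM scale), the median over all genes was 0.13, and 52.8% of the genes past 2-fold were higher in HepG2 in place of 42.7%. Rescaling enlarged all values while the added 1 and the filter of 1 were kept, so these settings were looser there. List medians that changed sign on that scale are given below with both values.

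**Figure D2:**
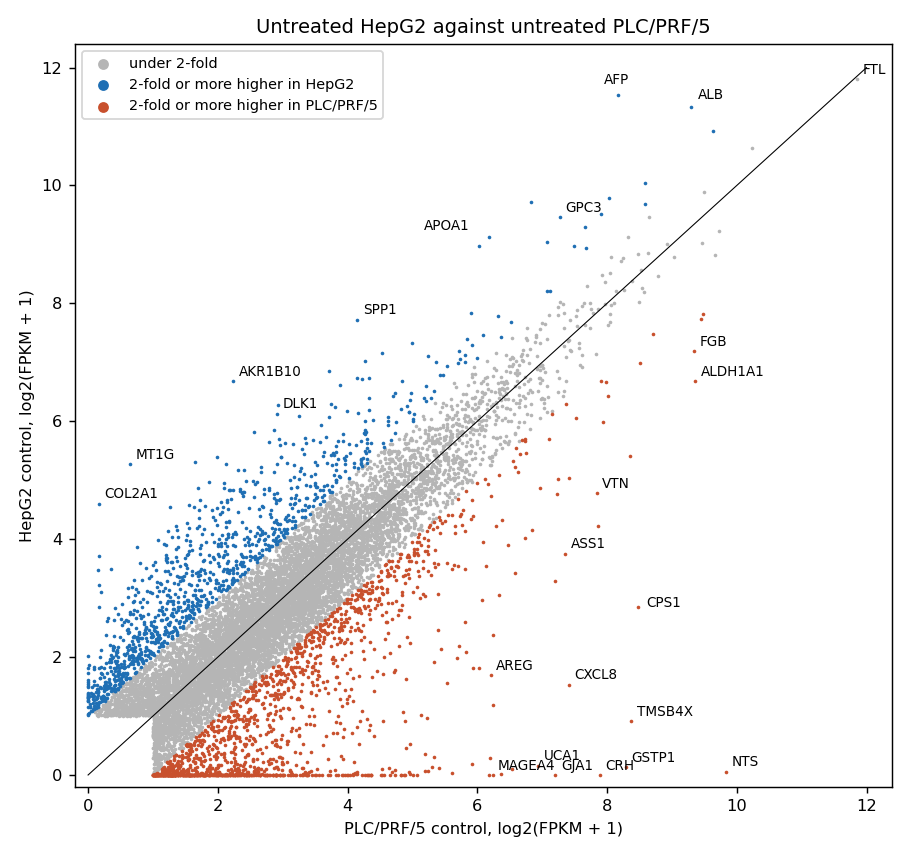
Genes of the comparison, with sex-marker genes left out, by log2(FPKM + 1) in the PLC/PRF/5 control (x axis) and the HepG2 control (y axis), colored where the difference was 2-fold or more. Genes high in HepG2 fan out from the diagonal, and genes high in PLC/PRF/5 include a row at or near 0 in HepG2, with NTS at 915 FPKM in PLC/PRF/5.

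The nuclear factors that define hepatocytes did not lean to one line as a list, although single members differed. Of 23 measured, 3 were higher in HepG2 by 2-fold or more and 3 lower, and the median log2 ratio was 0.02. Of the 21 at 1 FPKM or more in both controls, 2 were higher and 3 lower, with a median of -0.02. Among all genes 8.92% were higher and 12% lower, so by this count the 23 factors were no closer between the lines than other genes. The nuclear receptor HNF4A, the central hepatocyte regulator, was at 43.2, 39.9, 24.4 and 23.7 FPKM, so that HepG2 was higher in both pairs but under 2-fold. The pioneer factor FOXA2 was at 17.99, 16.6, 15.03 and 13.4 FPKM, and FOXA3 at 11.98, 12.8, 12.3 and 11.9 FPKM. GATA4, HNF4G and ONECUT2 had log2 ratios of 0.02, -0.02 and -0.08. The members past 2-fold in HepG2 were receptors of bile acids and xenobiotics and a repressor induced by the bile acid receptor. The bile acid receptor NR1H4 (FXR) was at 12.05, 10.4, 2.81 and 4.06 FPKM, 4.29 times (95% interval 3.68 to 5.01) the PLC/PRF/5 control, and its target NR0B2 (SHP) at 25.05, 36.8, 8.15 and 16.9 FPKM. The xenobiotic receptor NR1I2 (PXR) was at 2.72, 1.78, 0.217 and 0.438 FPKM, and the lines did not overlap for any of these. In the other direction the orphan receptor NR2F2 was 2.77 times (95% interval 2.56 to 3.01) as high in PLC/PRF/5 and the biliary and hepatoblast factor ONECUT1 2.92 times (95% interval 2.57 to 3.33). ATF5, a stress-responsive factor, was at 6.14, 5.42, 16.2 and 14.4 FPKM.

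Genes for secreted liver proteins stood apart far more than the factors did, most of them higher in HepG2. Of 22 plasma carriers and protease inhibitors measured, 16 were higher by 2-fold or more and 2 lower, and the list's median was 1.72 (1.20 in the treated pair), where 8.92% of all genes were higher. Of the 20 at 1 FPKM or more in both controls, 15 were higher and 2 lower, with a median of 1.72. Albumin (ALB, chromosome 4, 73397114 to 73421412), the main plasma protein, was at 2586, 2421, 624 and 1148 FPKM. Its fetal counterpart AFP (chromosome 4, 73431138 to 73456174) was at 2976, 2483, 288 and 441 FPKM, 10.3 times (95% interval 10.2 to 10.5) the level of the PLC/PRF/5 control. Among nuclear protein-coding genes they were the third and the second most abundant transcripts of the HepG2 control. Both were higher in treated than in control PLC/PRF/5. AHSG, the fetuin that binds calcium phosphate, was at 840.0, 792, 112 and 222 FPKM, and the phospholipid-binding APOH at 503, 443, 64.1 and 88.9 FPKM. The thyroxine-binding globulin SERPINA7 and the acute-phase carriers ORM1 and ORM2, whose near-identical transcripts may share reads, were 8.95 times, 5.19 times and 5.52 times as high in HepG2. The elastase inhibitor SERPINA1 was at 1053, 875, 383 and 356 FPKM. Lower in HepG2 were the adhesion protein VTN (vitronectin), at 26.4, 18.04, 229 and 157 FPKM, and the copper oxidase CP (ceruloplasmin), at 11.1, 11.05, 39.3 and 32.9 FPKM. AMBP, at 442, 375, 524 and 426 FPKM, and angiotensinogen AGT, at 329, 289, 250.5 and 220.0 FPKM, were within 1.5-fold in the controls.

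Of 16 apolipoprotein and lipoprotein assembly genes, 10 (62.5%) were higher in HepG2 by 2-fold or more and 1 (6.25%) lower. The shares of all genes were 8.92% and 12%, and the list's median was 1.08. Of the 11 at 1 FPKM or more in both controls, 7 were higher and none lower, with a median of 1.12. APOA1, the structural protein of high-density lipoprotein, was at 557, 402, 71.6 and 106 FPKM, 7.79 times (95% interval 7.44 to 8.15) the PLC/PRF/5 control, and APOA2 at 884, 885, 259.9 and 333 FPKM. APOB, which forms the scaffold of very-low-density lipoprotein, was at 1949, 1712, 791 and 829 FPKM, and the transfer protein that loads it, MTTP, at 23.1, 19.7, 10.9 and 7.57 FPKM. APOC3 and APOA5, which lie beside APOA1 on chromosome 11, were 7.83 times and 7.64 times as high in HepG2. APOE and APOC1, neighbors on chromosome 19, were not, at 204, 185, 264 and 267 FPKM and 39.0, 29.5, 55.0 and 43.7 FPKM. In 9 of the 10 higher genes the lines did not overlap, where 98.5% of all higher genes did not. The lipase inhibitor ANGPTL4 was the member lower in HepG2, at 0.532, 0.476, 6.88 and 4.85 FPKM.

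Coagulation genes were divided, with the fibrinogen genes FGA and FGB and the contact pathway genes F12 and KNG1 on the PLC/PRF/5 side. Of 17 measured, 10 (58.8%) were higher in HepG2 by 2-fold or more and 4 (23.5%) lower, against 8.92% and 12% of all genes. The list's median was 1.14. Of the 14 at 1 FPKM or more in both controls, 9 were higher and 2 lower, with a median of 1.34. Antithrombin (SERPINC1) was at 37.8, 39.6, 3.36 and 6.33 FPKM and heparin cofactor II (SERPIND1) at 114, 98.1, 12.1 and 21.99 FPKM, 11.3 times and 9.46 times the PLC/PRF/5 control. Prothrombin (F2), at 109, 91.8, 43.3 and 49.1 FPKM, and factor V (F5), at 34.7, 29.5, 8.64 and 12.2 FPKM, were higher in HepG2 in both pairs. The genes of fibrinogen, which is built from 3 chains, were higher in PLC/PRF/5 by 2-fold or more for 2 of the chains. FGB was at 145, 94.4, 648 and 347 FPKM, FGA at 226, 150.0, 711 and 449 FPKM and FGG at 354, 260.7, 438 and 289 FPKM, and these are neighbors on chromosome 4 between 154562956 and 154612967. FGA was 3.15 times (95% interval 3.09 to 3.20) and FGB 4.48 times (95% interval 4.36 to 4.595) as high in the PLC/PRF/5 control, while FGG had a log2 ratio of -0.31. Factor XII (F12), the starter of the contact pathway, was at 0.648, 0.515, 12.7 and 10.1 FPKM and its partner kininogen KNG1 at 0.550, 0.221, 4.01 and 3.01 FPKM. SERPING1, the inhibitor of factor XII and of complement C1, was likewise lower in HepG2, at 0.797, 0.6001, 19.4 and 11.03 FPKM.

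Of 18 complement genes 13 (72.2%) were higher in HepG2 by 2-fold or more and 3 (16.7%) lower, against 8.92% and 12% of all genes. The list's median was 1.37 (0.90 in the treated pair). Of the 6 at 1 FPKM or more in both controls, 4 were higher and 1 lower, with a median of 1.10. The other 12 reached 1 FPKM in one control alone, 10 in HepG2, and over the 8 at 1 FPKM or more in PLC/PRF/5 the median was 0.46. C3, the component on which all pathways converge, was at 295, 241, 134 and 128 FPKM, and the cofactor protein C4BPA at 14.3, 10.7, 3.14 and 5.58 FPKM. The copies C4A and C4B, which cannot be separated with certainty by short reads, were 9.24 times and 8.11 times as high in HepG2. The 3 lower genes were SERPING1, the terminal component C5 at 9.43, 8.63, 33.3 and 29.96 FPKM, and C8G, which encodes a chain of C8, at 0.727, 1.11, 6.21 and 5.52 FPKM. C8A and C8B, for the other chains of C8, were higher in HepG2, at 4.04 and 0.714 FPKM and 1.53 and 0.0513 FPKM in the HepG2 and PLC/PRF/5 controls.

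**Figure D3:**
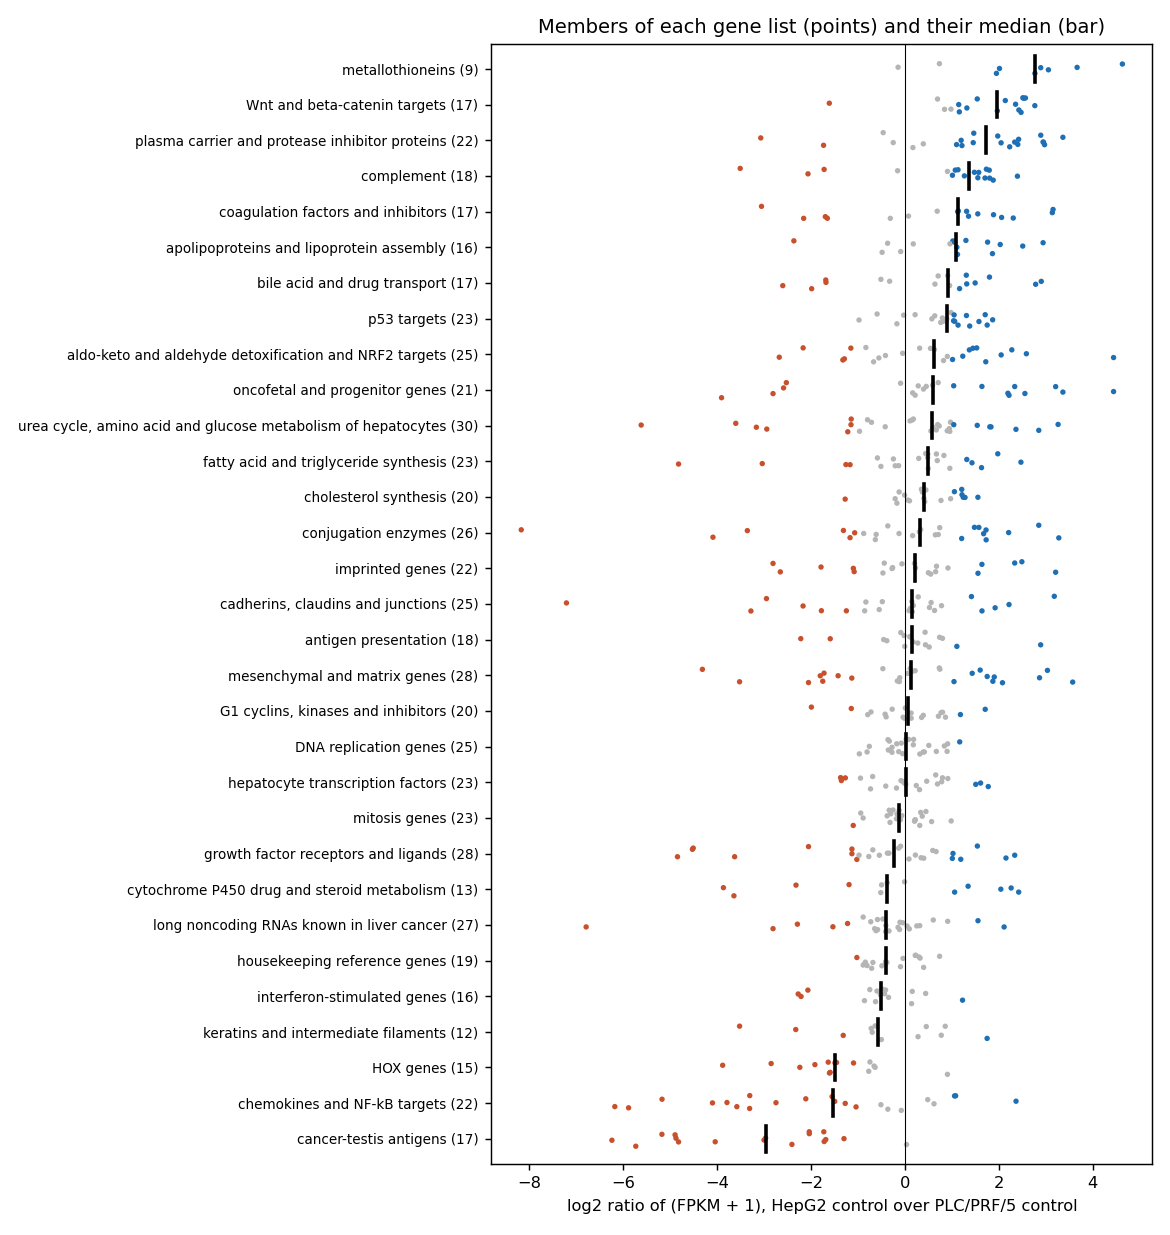
Log2 ratio of (FPKM + 1), HepG2 control over PLC/PRF/5 control (x axis), for each measured gene (points) of the 31 lists (y axis, number measured in parentheses), with the list median as a bar. Points are blue at 2-fold or more higher in HepG2 and red at 2-fold or more higher in PLC/PRF/5. Over all genes measured, metallothioneins and Wnt targets have the highest medians, at 2.77 and 1.97 (1.75 and 2.25 over genes at 1 FPKM or more in both controls), and cancer-testis antigens the lowest, at -2.96.

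Oncofetal and progenitor genes were on both sides. Of 21 measured, 9 were higher in HepG2 by 2-fold or more and 4 lower, with a median of 0.59. Of the 19 at 1 FPKM or more in both controls, 9 were higher and 2 lower, with a median of 0.71. AKR1B10, an aldo-keto reductase raised in many liver tumors, was at 102, 119.6, 3.72 and 6.04 FPKM, 27.4 times (95% interval 23.1 to 32.6) the PLC/PRF/5 control. The cell-surface proteoglycan GPC3 was at 706, 590.0, 154 and 196 FPKM, the Notch ligand homolog DLK1 at 69.1, 50.4, 6.57 and 10.6 FPKM and the biliary progenitor factor SOX9 at 77.5, 67.01, 12.3 and 17.7 FPKM. EPCAM, a surface protein of hepatic progenitors, was at 50.6, 41.0, 10.1 and 16.9 FPKM. The RNA-binding oncofetal proteins did not separate the lines, as LIN28B was at 33.1, 33.3, 35.3 and 28.01 FPKM and IGF2BP3 at 10.7, 9.10, 9.02 and 7.75 FPKM. CD24, SALL4, H19 and GOLM1 were the members higher in PLC/PRF/5. CD24, a small surface glycoprotein of progenitor cells, was at 8.83, 4.22, 146 and 87.2 FPKM, and the stem cell factor SALL4 at 0.207, 0.170, 6.23 and 4.49 FPKM. The Golgi protein GOLM1, a serum marker of liver cancer, was at 1.71, 1.08, 14.6 and 8.39 FPKM.

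Targets of Wnt and beta-catenin signaling were mostly higher in HepG2. Of 17 measured, 13 (76.5%) were higher by 2-fold or more and 1 (5.88%) lower, against 8.92% and 12% of all genes. The list's median was 1.97 (1.30 in the treated pair). Of the 14 at 1 FPKM or more in both controls, 12 were higher and none lower, with a median of 2.25. The feedback inhibitors of the pathway were among them. AXIN2 was at 20.9, 16.8, 3.97 and 6.48 FPKM, NKD1 at 34.2, 31.2, 5.33 and 9.72 FPKM and the Wnt deacylase NOTUM at 74.5, 67.1, 13.03 and 23.7 FPKM. LGR5, the R-spondin receptor of stem cells, was at 30.3, 25.8, 5.10 and 8.21 FPKM, and the transcription factor SP5 at 36.5, 38.4, 5.33 and 8.55 FPKM. The lines did not overlap in any of the 13, as in 98.5% of all genes higher in HepG2. Of the targets known from pericentral hepatocytes, glutamine synthetase GLUL, at 54.6, 52.8, 18.1 and 20.2 FPKM, went the same way. So did the ammonia transporter RHBG, at 24.5, 20.5, 3.40 and 6.21 FPKM. CYP2E1, another such target on the list, did not. It was below 1 FPKM in both controls, at 0.0124 in HepG2 and 0.0632 in PLC/PRF/5. The transcription factors of the pathway differed from each other, since TCF7 was at 4.40, 3.58, 1.44 and 1.80 FPKM and LEF1 at 0.312, 0.403, 3.0002 and 1.98 FPKM, the member lower in HepG2. Of the 13 genes, 11 were higher in treated than in control PLC/PRF/5, as were 254 of the 274 HepG2-high genes described above. CTNNB1 itself, named outside the rule for naming genes, was at 35.8, 28.3, 26.4 and 22.3 FPKM.

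Of 23 p53 targets measured, 10 (43.5%) were higher in HepG2 by 2-fold or more and none was lower by as much. Among all genes 8.92% were higher and 12% lower. The list's median was 0.89 (0.49 in the treated pair). Of the 20 at 1 FPKM or more in both controls, 8 were higher and none lower, with a median of 0.88. The cyclin-dependent kinase inhibitor CDKN1A (p21) was at 24.3, 15.7, 6.73 and 8.92 FPKM, 3.61 times (95% interval 3.24 to 4.04) the PLC/PRF/5 control. PHLDA3, a repressor of AKT, was at 8.92, 6.12, 1.71 and 2.76 FPKM, the ectodysplasin receptor EDA2R at 7.08, 4.82, 1.40 and 2.04 FPKM and the death receptor FAS at 3.002, 2.09, 0.612 and 0.771 FPKM. MDM2, the ubiquitin ligase of p53, was under 2-fold, at 22.03, 20.6, 12.2 and 14.4 FPKM. The stress cytokine GDF15 and the sestrin SESN2 had log2 ratios of -0.98 and -0.59. The lines did not overlap in any of the 10, as in 98.5% of all higher genes, and all 10 were higher in treated than in control PLC/PRF/5, as were 254 of the 274 HepG2-high genes described above.

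Detoxification genes did not favor one line as a group. Of 13 cytochrome P450 genes measured, 5 (38.5%) were higher in HepG2 by 2-fold or more and 4 (30.8%) lower. The shares of all genes were 8.92% and 12%. The list's median, -0.37, was 0.05 on the TPM scale. Of the 6 at 1 FPKM or more in both controls, 2 were higher and 2 lower, with a median of -0.19. CYP27A1, the mitochondrial sterol hydroxylase of bile acid synthesis, was at 41.0, 36.1, 6.82 and 14.4 FPKM. CYP24A1, which inactivates vitamin D, was at 4.20, 2.51, 74.6 and 59.5 FPKM, CYP1A1, the target of the aryl hydrocarbon receptor, at 1.94, 7.62, 13.6 and 35.02 FPKM and CYP2S1 at 0.882, 0.815, 22.4 and 17.7 FPKM, all higher in PLC/PRF/5. Among 26 conjugation enzymes, 9 (34.6%) were higher in HepG2 and 6 (23.1%) lower by 2-fold or more, against 8.92% and 12% of all genes. Of the 18 at 1 FPKM or more in both controls, 8 were higher and 2 lower, with a median of 0.70. The alpha class glutathione transferase GSTA1 was at 22.4, 16.5, 1.41 and 2.05 FPKM, with the caution that GSTA2 is nearly identical, and the steroid sulfotransferase SULT2A1 at 49.1, 54.8, 5.94 and 16.2 FPKM. The pi class enzyme GSTP1 (chromosome 11, 67583595 to 67586656) was at 0.0939, 0, 313 and 251 FPKM. It had 3 fragments in the HepG2 control and 12807 in the PLC/PRF/5 control, a ratio of 3338 times (95% interval 1142 to 16188). NNMT, which methylates nicotinamide, had 1 fragment in the HepG2 control and was at 0.0205, 0, 16.3 and 11.5 FPKM.

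Aldo-keto reductases and aldehyde dehydrogenases divided between the lines gene by gene. Of 25 genes of this list, which includes NRF2 targets, 10 (40%) were higher in HepG2 by 2-fold or more and 5 (20%) lower. The shares of all genes were 8.92% and 12%. Of the 22 at 1 FPKM or more in both controls, 8 were higher and 4 lower, with a median of 0.59. AKR1C1 was at 106, 115, 16.7 and 35.5 FPKM, close in sequence to AKR1C2 at 26.7, 29.3, 13.8 and 18.3 FPKM, and the quinone reductase NQO1 at 175, 162, 67.1 and 78.7 FPKM. ALDH1A1, which makes retinoic acid, was 6.43 times (95% interval 6.24 to 6.63) as high in PLC/PRF/5, at 102, 88.6, 654 and 467.4 FPKM. On the same side were GCLM of glutathione synthesis, at 10.7, 8.28, 51.3 and 44.1 FPKM, the thioredoxin reductase TXNRD1, at 43.2, 39.1, 107 and 121 FPKM, and the heme oxygenase HMOX1, at 16.2, 11.3, 41.9 and 60.7 FPKM. NRF2 targets were thus higher in either line, NQO1 in HepG2 and GCLM in PLC/PRF/5.

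Of 17 bile acid and drug transporters, 7 (41.2%) were higher in HepG2 by 2-fold or more and 4 (23.5%) lower. The shares of all genes were 8.92% and 12%. Of the 10 at 1 FPKM or more in both controls, 3 were higher and 3 lower, with a median of 0.19. The efflux pump ABCB1 was at 21.5, 23.99, 2.26 and 5.19 FPKM and the cation transporter SLC22A3 at 22.3, 18.6, 2.11 and 4.83 FPKM. Higher in PLC/PRF/5 were the bile acid exporter subunit SLC51B, at 3.56, 3.72, 26.6 and 26.9 FPKM, the pumps ABCC4, at 2.61, 1.87, 13.3 and 9.12 FPKM, and ABCG2, at 2.71, 2.27, 10.9 and 7.44 FPKM, and the bile acid conjugating enzyme BAAT, at 0.282, 0.348, 3.12 and 1.53 FPKM. The canalicular pump ABCC2 was high in both lines, at 63.6, 67.4, 90.9 and 91.0 FPKM.

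The urea cycle genes CPS1 and ASS1 had some of the largest differences in hepatocyte metabolism, toward PLC/PRF/5. CPS1 (chromosome 2, 210477682 to 210679107), which fixes ammonia, was at 6.25, 4.93, 354 and 222 FPKM, 56.6 times (95% interval 53.4 to 60.1) as high in PLC/PRF/5. ASS1, which joins citrulline to aspartate, was at 12.5, 12.8, 162.5 and 118 FPKM, whereas the next enzyme ASL was at 7.62, 6.57, 6.98 and 6.86 FPKM. Amino acid breakdown was higher in HepG2 for HPD of tyrosine catabolism, at 55.7, 54.3, 4.90 and 7.92 FPKM, and MAT1A, which makes S-adenosylmethionine, at 29.9, 26.7, 3.28 and 4.89 FPKM. Genes of glucose uptake and its first phosphorylation were divided. HK2 was at 29.6, 34.4, 4.93 and 8.47 FPKM and the erythrocyte-type transporter SLC2A1 at 101, 119, 27.7 and 55.2 FPKM, both higher in HepG2. The hepatocyte-type transporter SLC2A2 was at 2.45, 3.28, 25.5 and 16.3 FPKM and the neuron-type SLC2A3 at 42.8, 23.1, 101 and 76.5 FPKM, both higher in PLC/PRF/5. The lactate dehydrogenase chain LDHB was at 0, 0, 7.95 and 6.08 FPKM, with 0 fragments in the HepG2 control, which puts PLC/PRF/5 at least 132-fold higher by the limit of 3 fragments, while LDHA was at 223, 205, 137 and 129.9 FPKM. In this list of 30 genes, 7 were higher in HepG2 and 7 lower by 2-fold or more. Of the 24 at 1 FPKM or more in both controls, 6 were higher and 5 lower, with a median of 0.58.

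Metallothioneins, small cysteine-rich proteins that bind zinc and copper, were higher in HepG2 as a family. Of the 9 genes of the list measured, 7 were higher by 2-fold or more, which were the 7 metallothioneins themselves, and the median was 2.77 (1.75 in the treated pair). Of the 4 at 1 FPKM or more in both controls, 2 were higher and none lower, with a median of 1.75. The other 5 reached 1 FPKM in HepG2 alone. MT1G was at 37.7, 17.6, 0.561 and 0.707 FPKM, MT1E at 38.8, 23.03, 2.13 and 2.29 FPKM and MT2A at 51.2, 34.5, 6.65 and 9.47 FPKM. MT1M was at 3.04, 1.54, 0 and 0 FPKM, so that HepG2 was at least 22.2-fold higher by the limit of 3 fragments. These genes lie side by side on chromosome 16 between 56608199 and 56684196 and are so alike that reads may be shared among them. MTF1, the zinc sensor that activates them, was at 2.97, 2.64, 3.39 and 3.07 FPKM, and the zinc exporter SLC30A1, which MTF1 also activates, at 17.7, 13.5, 10.2 and 10.1 FPKM.

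Lipid synthesis genes were higher in untreated HepG2 by their list medians, and not in the treated pair. Of 20 cholesterol synthesis genes, 6 were higher by 2-fold or more and 1 lower, and the list's median was 0.41. The squalene synthase FDFT1 was at 55.5, 9.53, 18.2 and 7.70 FPKM and squalene epoxidase SQLE at 70.7, 9.94, 29.8 and 9.49 FPKM. In none of the 6 were both HepG2 libraries above both PLC/PRF/5 libraries, and the list's median in the treated pair was -0.35. None of the 6 was higher in treated than in control cells of either line. For these genes the order of the 4 libraries therefore mixes treatment with line. It cannot decide whether the untreated difference would recur. Of 23 genes of fatty acid and triglyceride synthesis, 5 were higher and 4 lower, with a median of 0.49 that was -0.07 in the treated pair. Of the 18 at 1 FPKM or more in both controls, 4 were higher and 2 lower, with a median of 0.49. PNPLA3, a lipid droplet protein, was at 8.88, 2.05, 0.781 and 0.729 FPKM, and the desaturase SCD at 419, 69.4, 296 and 63.6 FPKM. The malic enzyme ME1 was at 0, 0, 27.2 and 19.1 FPKM, at least 506-fold higher in PLC/PRF/5, and the acyltransferase AGPAT2 at 0.131, 0.0536, 8.27 and 6.07 FPKM.

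The largest single differences were genes of PLC/PRF/5. Neurotensin (NTS, chromosome 12, 85874295 to 85882992), a gut and brain peptide made by some liver tumors, was at 0.0385, 0, 915 and 576 FPKM. Among nuclear protein-coding genes it was the third most abundant transcript of the PLC/PRF/5 control. The HepG2 control held 1 fragment of it against 30420, a ratio of 23785 times (95% interval 4269 to 939474). Corticotropin-releasing hormone (CRH) was at 0, 0, 236 and 198 FPKM, at least 1695-fold higher in PLC/PRF/5. The gap junction protein GJA1 (connexin 43) was at 0, 0, 146 and 91.4 FPKM, at least 2787-fold higher. Both are at 0 in both HepG2 libraries. The actin-sequestering peptide TMSB4X was at 0.878, 0.202, 331 and 226 FPKM, 377 times (95% interval 255 to 582) as high, whereas its relative TMSB10 was at 212, 121.6, 696 and 539.5 FPKM. The mucin MUC13, the adhesion molecule CNTN1, the tetraspanin-like TM4SF4 and the hyaluronan-binding protease HABP2 were at 91.9, 81.6, 72.4 and 41.3 FPKM in the PLC/PRF/5 control and at most 0.224 FPKM in the HepG2 control. In all, 80 genes were at 5 FPKM or more in the PLC/PRF/5 control and at 0 in the HepG2 control, 66 of them protein-coding, and no gene had the opposite pattern.

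Among the highest differences in HepG2, beside MT1G and AKR1B10, were the fibril collagen COL2A1, 185 times (95% interval 117 to 312) the PLC/PRF/5 control, and the basement membrane protein FREM1, at 12.1, 9.84, 0.126 and 0.186 FPKM. The organic anion transporter SLCO4C1 was at 10.2, 3.87, 0.111 and 0.174 FPKM, and the adhesion molecule HEPACAM at 10.2, 7.62, 0.282 and 0.879 FPKM. These 4 genes, unlike most, were under 5% of the HepG2 level in the PLC/PRF/5 control. The carboxylesterase CES1, at 30.5, 25.6, 2.63 and 4.81 FPKM, and the fetal claudin CLDN6, at 28.3, 14.3, 2.23 and 2.03 FPKM, were nearer the usual ratio. CLDN6 was not higher in treated than in control PLC/PRF/5.

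Adhesion genes gave each line its own set. Of 25 cadherins, claudins and junction genes, 5 (20%) were higher in HepG2 by 2-fold or more and 6 (24%) lower. The shares of all genes were 8.92% and 12%, and the list's median was 0.15. Of the 18 at 1 FPKM or more in both controls, 3 were higher and 3 lower, with a median of 0.15. Higher in HepG2 were CLDN6, EPCAM and CLDN4, the last at 5.35, 4.44, 0.676 and 1.23 FPKM. Higher in PLC/PRF/5 were the cadherins of epithelium and mesenchyme alike, with CDH1 at 1.55, 1.29, 10.4 and 9.26 FPKM and CDH2 at 2.08, 1.46, 28.8 and 17.2 FPKM, and the tight junction protein CLDN1, at 41.4, 21.5, 325 and 185 FPKM. The liver connexin GJB1 was at 28.8, 22.9, 25.9 and 18.5 FPKM, in contrast to GJA1. Of 12 keratins and intermediate filament genes, 1 was higher and 3 lower, with a median of -0.57. Of the 9 at 1 FPKM or more in both controls, 1 was higher and 1 lower, with a median of 0.28. The paired hepatocyte keratins KRT8 and KRT18 were at 102, 74.3, 165 and 114 FPKM and 101, 78.6, 251 and 174 FPKM, KRT18 being past 2-fold. Vimentin (VIM), the filament of mesenchymal cells, was at 0, 0.0190, 10.5 and 7.35 FPKM, at least 302-fold higher in PLC/PRF/5, and nestin (NES) was at 17.2, 11.96, 4.41 and 5.33 FPKM. KRT20 was at 0, 0.0532, 4.002 and 2.49 FPKM.

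Mesenchymal and matrix genes were likewise divided, 10 of 28 (35.7%) higher in HepG2 and 8 (28.6%) lower at the 2-fold level. The shares of all genes were 8.92% and 12%. The list's median was 0.14, and -0.14 for the same genes in the treated pair. Of the 22 at 1 FPKM or more in both controls, 10 were higher and 2 lower, with a median of 0.74. Among those higher in HepG2 were secreted matrix proteins. Osteopontin (SPP1) was at 210.4, 269, 16.8 and 40.6 FPKM, fibronectin (FN1) at 727, 644, 238 and 325 FPKM, SPARC at 35.3, 21.9, 3.97 and 4.55 FPKM and the protease inhibitor TIMP3 at 23.03, 16.8, 1.93 and 3.35 FPKM. On the PLC/PRF/5 side were the annexin ANXA1 at 0, 0, 18.8 and 11.95 FPKM, the receptor kinase AXL at 0.617, 0.546, 5.70 and 5.60 FPKM and the matrix protease MMP14 at 1.92, 1.51, 8.80 and 6.05 FPKM. The repressors of epithelial genes ZEB1 and SNAI1 were at 3.58, 3.37, 3.23 and 3.61 FPKM and 1.16, 0.951, 1.07 and 1.28 FPKM and did not separate the lines.

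Growth factor genes were also divided. Of 28 measured, 6 (21.4%) were higher in HepG2 by 2-fold or more and 8 (28.6%) lower, against 8.92% and 12% of all genes. The list's median of -0.23 was 0.09 on the TPM scale. Of the 20 at 1 FPKM or more in both controls, 5 were higher and 3 lower, with a median of -0.0011. Ligands of the EGF receptor were higher in either line. Amphiregulin (AREG) was at 2.22, 2.93, 73.0 and 62.3 FPKM and epiregulin (EREG) at 0.283, 0.335, 35.7 and 32.8 FPKM, 32.9 times (95% interval 25.5 to 43.1) and 126 times (95% interval 86.8 to 192) as high in PLC/PRF/5, whereas TGFA was at 7.64, 5.66, 0.941 and 1.71 FPKM. Their receptor EGFR was at 10.8, 8.21, 22.98 and 12.38 FPKM, and the related ERBB3 at 32.1, 37.5, 35.2 and 37.6 FPKM. The binding proteins of insulin-like growth factors, IGFBP1 and IGFBP3, were at 17.8, 108, 230.5 and 494 FPKM and 0.0916, 0.140, 23.8 and 12.2 FPKM, and the ligand IGF2, whose exons overlap another gene, at 60.2, 56.2, 11.1 and 20.6 FPKM. Receptors for hepatocyte growth factor and for FGF19, MET and FGFR4, had log2 ratios of -0.68 and 0.09.

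Chemokines and NF-kB targets were the inflammatory set that separated the lines, with 14 of 22 (63.6%) lower in HepG2 by at least 2-fold and 3 (13.6%) higher. Among all genes 12% were lower and 8.92% higher. The list's median was -1.52 (-1.28 in the treated pair). Of the 13 at 1 FPKM or more in both controls, 3 were higher and 7 lower, with a median of -1.49. NF-kB is a family of factors that bind kappaB sites and turn on chemokines, adhesion molecules and their own inhibitors. The largest differences were in neutrophil chemokines. CXCL8 (interleukin 8, chromosome 4, 73740506 to 73743716) was at 1.90, 1.14, 169.8 and 127 FPKM, 89.5 times (95% interval 70.9 to 115) as high in PLC/PRF/5, CXCL5 at 0, 0.101, 71.2 and 43.3 FPKM and CXCL1 at 0.0461, 0.0379, 36.7 and 19.9 FPKM. CXCL2 was at 0, 0.105, 8.86 and 5.98 FPKM, with 0 fragments in the HepG2 control, and PLC/PRF/5 was at least 69.1-fold higher. The noncanonical NF-kB genes NFKB2 and RELB were at 3.39, 2.74, 42.4 and 34.6 FPKM and 1.25, 0.782, 14.1 and 10.7 FPKM, and the survival gene BIRC3 at 1.10, 0.582, 27.9 and 20.98 FPKM. The lines did not overlap in any of the 14, as in 98.9% of all genes lower in HepG2. The inhibitors NFKBIA and TNFAIP3 were higher in HepG2, at 48.3, 46.5, 22.3 and 28.5 FPKM and 12.03, 9.55, 5.26 and 5.71 FPKM, as was the membrane chemokine CX3CL1, at 21.9, 19.6, 3.44 and 4.84 FPKM. CCL20 was near equal, at 43.03, 55.4, 61.7 and 49.8 FPKM.

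The promoters of 4 chemokines higher in PLC/PRF/5 are shown because they share a kappaB motif close to the start. The bases are the 250 before the RefSeq start on GRCh38.p14, 5′ to 3′ on the gene's strand, with the motif match nearest the start in capitals. CXCL8 is chr4:73740319-73740568 on the plus strand, CXCL1 chr4:73869143-73869392 plus, CXCL2 chr4:74099196-74099445 minus and CXCL5 chr4:73998678-73998927 minus.
CXCL8: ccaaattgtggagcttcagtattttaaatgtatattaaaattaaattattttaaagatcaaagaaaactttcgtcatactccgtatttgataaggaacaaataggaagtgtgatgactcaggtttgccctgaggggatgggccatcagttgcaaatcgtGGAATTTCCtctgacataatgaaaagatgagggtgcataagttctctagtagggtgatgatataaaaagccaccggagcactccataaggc
CXCL1: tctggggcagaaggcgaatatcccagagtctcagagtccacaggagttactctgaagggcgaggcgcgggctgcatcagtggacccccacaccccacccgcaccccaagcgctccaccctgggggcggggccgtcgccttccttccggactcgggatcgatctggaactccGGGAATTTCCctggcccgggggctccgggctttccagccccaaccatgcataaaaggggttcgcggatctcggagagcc
CXCL2: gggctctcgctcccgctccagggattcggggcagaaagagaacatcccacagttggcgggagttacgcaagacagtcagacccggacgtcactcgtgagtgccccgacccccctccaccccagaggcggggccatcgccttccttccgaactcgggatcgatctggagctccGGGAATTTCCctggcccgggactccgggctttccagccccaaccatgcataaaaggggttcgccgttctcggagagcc
CXCL5: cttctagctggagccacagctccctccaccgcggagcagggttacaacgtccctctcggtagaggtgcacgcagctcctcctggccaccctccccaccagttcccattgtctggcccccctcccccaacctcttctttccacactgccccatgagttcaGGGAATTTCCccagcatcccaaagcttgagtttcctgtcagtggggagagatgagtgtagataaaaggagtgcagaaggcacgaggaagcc
The capitals start 91, 79, 78 and 91 bases before the start in these 4 genes. The motifs searched were a run of 3 G, any 2 bases, 3 T and 2 C, and the shorter GGAATTTCC, which can overlap each other, on both strands of 300 bases from 250 before to 50 after the start. A match was found in 12 of the 17 list genes with a RefSeq promoter (70.6%), against 2.53% of the promoters of 9019 protein-coding genes of the comparison and 2.23% of all 27305 promoters. NF-kB targets were put on the list for such regulation, so the share describes the list and not the difference between lines. Of the 12 genes with a match 8 were lower and 2 higher in HepG2 by 2-fold or more, and of the 5 without one 3 were lower. A match is letters in a window, and binding was not measured.

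On chromosome 4 these chemokines lie beside albumin and AFP. From ALB to BTC, whose starts are 1398 kb apart, the genes at 1 FPKM or more are ALB and AFP, then CXCL8, CXCL6, CXCL1, CXCL5, CXCL3 and CXCL2, then MTHFD2L, EREG and AREG. ALB and AFP were higher in HepG2, and the 6 chemokines and both EGF receptor ligands EREG and AREG were higher in PLC/PRF/5 by 2-fold or more. MTHFD2L, a folate enzyme gene within this stretch, was at 1.02, 1.04, 0.848 and 0.864 FPKM.

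**Figure D4:**
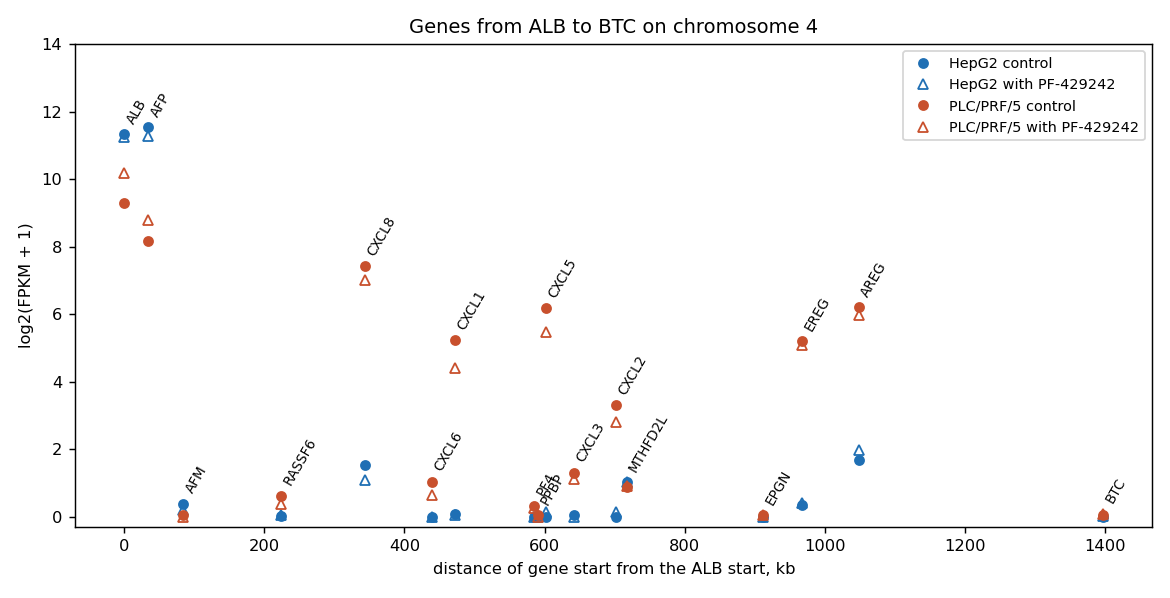
Level of protein-coding genes from ALB to BTC on chromosome 4 as log2(FPKM + 1) (y axis) by distance of the gene start from that of ALB in kb (x axis), in the HepG2 (blue) and PLC/PRF/5 (red) controls (filled circles) and treated libraries (open triangles). HepG2 is above at ALB and AFP, and PLC/PRF/5 at the chemokines CXCL8 to CXCL2 and at EREG and AREG.

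Interferon-stimulated and antigen presentation genes differed less. Of 16 interferon-stimulated genes 3 (18.8%) were lower in HepG2 by 2-fold or more and 1 (6.25%) higher, the median being -0.50. Among all genes 12% were lower and 8.92% higher. Of the 13 at 1 FPKM or more in both controls, none were higher and 3 lower, with a median of -0.52. The antiviral membrane proteins IFITM3 and BST2 were at 31.6, 27.5, 150.0 and 109.8 FPKM and 19.01, 14.9, 82.7 and 54.7 FPKM and IFI6 at 3.41, 2.98, 20.3 and 19.4 FPKM, while MX2, the member higher in HepG2, was at 3.04, 3.02, 0.723 and 0.979 FPKM. Of 18 antigen presentation genes 2 (11.1%) were higher and 2 (11.1%) lower, near the 8.92% and 12% of all genes. Of the 14 at 1 FPKM or more in both controls, 2 were higher and none lower, with a median of 0.14. The class II invariant chain CD74 was at 16.5, 13.01, 1.36 and 3.18 FPKM, higher in HepG2, and the class II peptide loaders HLA-DMA and HLA-DMB at 0.142, 0.214, 4.30 and 2.36 FPKM and 0, 0, 2.01 and 1.30 FPKM, higher in PLC/PRF/5.

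Cancer-testis antigens, germ cell genes silent in most adult tissues, were the list furthest toward PLC/PRF/5. Of 17 measured, 16 were lower in HepG2 at the 2-fold level, with a median of -2.96. Since 15 of the 17 reached 1 FPKM in PLC/PRF/5 alone, these counts largely follow from how genes were included and are given as a description. In 12 of the 17 the HepG2 control had 0 fragments. MAGEA4 (chromosome X, 151912509 to 151925170) was at 0, 0, 74.4 and 45.7 FPKM, at least 1278-fold higher in PLC/PRF/5, and MAGEA12 at 0, 0, 28.3 and 22.4 FPKM. MAGEA3 and MAGEA6, which are nearly identical and may share reads, were at 0.135, 0.0831, 59.2 and 41.3 FPKM and 0.0963, 0.0264, 38.5 and 27.5 FPKM. CTAG2, a target of T-cell therapies, was at 0, 0, 27.2 and 21.2 FPKM, and CSAG1, which lies among the MAGEA genes on the X chromosome, at 0, 0, 28.7 and 27.9 FPKM. PRAME, the member not past 2-fold, was at 4.78, 4.13, 4.63 and 4.33 FPKM. The list holds 41 genes found in the table, so 24 were below 1 FPKM in both controls.

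HOX genes, which set position along the body axis, were mostly higher in PLC/PRF/5. Of 15 measured, 10 (66.7%) were lower in HepG2 by 2-fold or more and none higher, the median being -1.49. Among all genes 12% were lower and 8.92% higher. Of the 2 at 1 FPKM or more in both controls, none were higher and 1 lower, with a median of -1.14. The other 13 reached 1 FPKM in one control alone, 12 of them in PLC/PRF/5. HOXA5 was at 1.91, 1.71, 8.02 and 6.98 FPKM. From the HOXC cluster, HOXC10 was at 0, 0.0207, 6.19 and 4.47 FPKM, HOXC13 at 0, 0.0625, 3.71 and 3.40 FPKM and HOXC8 at 0.0247, 0.0407, 2.86 and 3.02 FPKM. The HepG2 control had 0 fragments for 6 of the 15, among them HOXB4, HOXB7 and HOXC6. HOXA3 was shared, at 4.15, 3.23, 7.11 and 6.30 FPKM. HOXD1 was the one member with a positive log2 ratio, 0.91, and its exons overlap another gene.

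Imprinted genes, expressed from the copy of one parent, fell on both sides. At 2-fold or more 5 of 22 (22.7%) were higher in HepG2 and 5 (22.7%) lower, against 8.92% and 12% of all genes. Of the 14 at 1 FPKM or more in both controls, 4 were higher and 1 lower, with a median of 0.53. DLK1, IGF2, PEG10 and PEG3 were higher in HepG2, the last at 104, 90.4, 17.6 and 31.3 FPKM, as was the antisense transcript KCNQ1OT1, at 3.95, 3.13, 0.682 and 0.855 FPKM. H19, the noncoding neighbor of IGF2, was at 0.144, 0, 7.005 and 4.07 FPKM, so that this pair of genes was in opposite order in the lines. PLAGL1, a zinc finger factor, was at 0.185, 0.146, 6.44 and 4.23 FPKM and ZDBF2 at 0.395, 0.338, 3.80 and 2.95 FPKM, both higher in PLC/PRF/5. The growth factor adapter GRB10 was at 2.17, 2.75, 5.70 and 5.87 FPKM.

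Of 27 lncRNAs known in liver cancer, 2 were higher in HepG2 by 2-fold or more and 5 lower, with a median of -0.40. Of the 17 at 1 FPKM or more in both controls, none were higher and 1 lower, with a median of -0.14. UCA1 (chromosome 19, 15828206 to 15836326) was at 0.115, 0.201, 122.03 and 104 FPKM, 1059 times (95% interval 537 to 2454) as high in PLC/PRF/5. The nuclear transcript MALAT1 was at 125, 108, 364 and 431 FPKM and NEAT1 at 12.9, 14.5, 20.3 and 36.7 FPKM. Outside that list, the lncRNAs with the highest log2 ratios were AC087273.2, at 67.4, 63.2, 8.55 and 14.2 FPKM, HS1BP3-IT1, at 22.5, 20.8, 2.49 and 2.94 FPKM, and AC020656.2, at 15.4, 16.2, 1.44 and 2.77 FPKM. The p53-induced PURPL was at 27.96, 23.9, 5.58 and 10.7 FPKM. DSCAM-AS1, at 0, 0, 18.7 and 14.6 FPKM, and LINC01419, at 0, 0, 19.2 and 6.43 FPKM, were at 0 in both HepG2 libraries. The sources used here do not say whether counting used strand, so antisense transcripts may hold reads of the opposite gene.

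Cell cycle genes were close. Of 23 mitosis genes none was higher and 1 lower at the 2-fold level, with a median of -0.12 that was 0.09 on the TPM scale, and the proliferation marker MKI67 was at 45.2 and 50.8 FPKM in the HepG2 and PLC/PRF/5 controls. Of 25 DNA replication genes 1 was higher, the polymerase clamp PCNA at 204, 142, 90.4 and 84.9 FPKM, and the median was 0.03. Among 20 genes of the G1 step, CDK6 was at 43.2, 37.5, 18.4 and 21.5 FPKM, and the inhibitors at the 9p21 locus, CDKN2A and CDKN2B, were at 0.166, 0.159, 3.63 and 2.35 FPKM and 0.493, 0.577, 2.29 and 1.88 FPKM, higher in PLC/PRF/5. MYC was at 37.7, 41.7, 20.2 and 26.9 FPKM and CCND1 at 56.8, 44.9, 68.7 and 60.9 FPKM. The 19 housekeeping reference genes had a median of -0.41 (-0.22 on the TPM scale), with GAPDH at 449.7, 438, 814 and 661 FPKM and PGK1, the member past 2-fold, at 51.2, 44.2, 105 and 89.6 FPKM. The 83 cytosolic ribosomal protein genes had a median of 0.28, the 74 mitochondrial ribosomal protein genes 0.08 and the 76 nuclear genes of the respiratory chain -0.34. Of 353 zinc finger genes named ZNF, 15 (4.25%) were higher in HepG2 and 26 (7.37%) lower, against 8.92% and 12% of all genes. Of 67 olfactory receptor genes deposited, only 1 reached 1 FPKM.

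Genes also differed by chromosome. The median log2 ratio of protein-coding genes was highest on chromosome 20, at 0.49 over 303 genes, and chromosome 16, at 0.42 over 507, followed by chromosome 14 at 0.25 and chromosome 22 at 0.22. It was lowest on the X chromosome, at -0.67 over 396 genes, then on chromosome 21 at -0.43, chromosome 12 at -0.39 and chromosome 15 at -0.37. On chromosome 20, 17.8% of genes were higher in HepG2 by 2-fold or more and 5.61% lower, and on the X chromosome 6.06% and 30.3%, where the protein-coding background was 8.43% and 11.7%. For genes at 1 FPKM or more in both controls the medians were 0.50 on chromosome 20, 0.42 on chromosome 16 and -0.54 on the X chromosome. The treated pair gave 0.32, 0.22 and -0.57 for the same 3 chromosomes. Copy number was not analysed here, and genes of a chromosome are not independent.

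**Figure D5:**
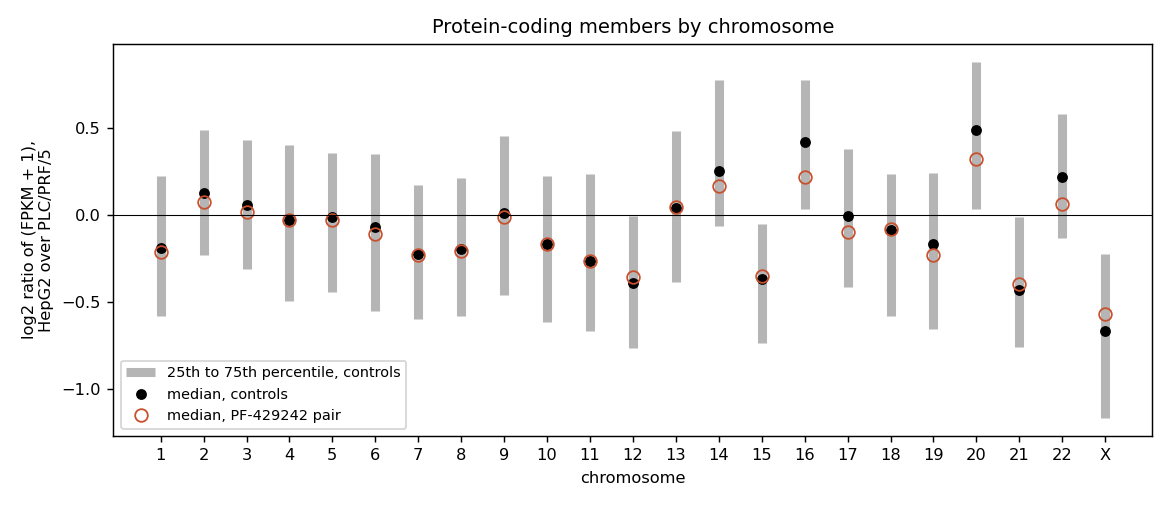
Median log2 ratio of (FPKM + 1), HepG2 over PLC/PRF/5 (y axis), of protein-coding genes on each chromosome (x axis) in the controls (black) and the treated pair (open circles), with the 25th to 75th percentile of the controls as a bar. Chromosomes 20 and 16 are highest, at 0.49 and 0.42, and X is lowest, at -0.67.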

How the data were processed

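RNA from 4 cultures (2 lines, each untreated or with 20 uM PF429242 for 24 h) was sequenced, 1 library each. The deposited table gives FPKM per gene and library, computed by the authors. TopHat2 and GRCh38 are named in the submitters' processing notes. The sources used here do not give its version, the counting program, the annotation or the use of strand. Genes were classed by GENCODE 29, which 32354 of 32479 genes matched, and symbols came from the gene table provided.

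Total fragments were recovered from the steps of low values. With GENCODE lengths 24452 genes (75.3%) gave whole fragments in all libraries within 0.001, and 7813 did with another whole-number length. The other 214 genes have no interval. Ratios are log2 of (FPKM + 1), called at 2-fold, with Python 3.11.15, numpy 2.4.6, pandas 2.3.3, scipy 1.17.1 and matplotlib 3.10.9. The recovery and the intervals were tested on simulated data. Where 1 line had 0 fragments, the fold is a lower bound from 3 fragments. With 1 library per group no p-value is given. PCR reads without molecular identifiers are not independent, so intervals are too narrow for anything but counting.

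The 31 gene lists, 6 symbol families and all members were chosen with earlier results of these data known. Genes were named by size of the log2 ratio or level (the 20 highest and 20 lowest protein-coding genes with at least 100 fragments, 10 lncRNAs at each end, the 10 most abundant per control, up to 5 of largest difference and 2 of highest level per list, any hepatocyte factor, oncofetal, HOX or imprinted gene, and up to 10 with at least 5 FPKM in one control and 0 in the other). Other list genes are named for their role and were picked after their values were seen. Members of near-identical families (MAGEA, CSAG, PAGE, metallothioneins, GSTA, ORM, AKR1C, C4) may share reads. For 181 genes (1.47%) at least 50% of exonic bases are shared with another gene. List counts were repeated over genes at 1 FPKM or more in both controls, a choice made after the data were seen. Alternatives were other pseudocounts, filters, scalings, gene classes, thresholds and the treated pair. Promoters are from RefSeq, GRCh38.p14. Some genes counted in the lists are not reported here by name.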

Additional observations from a re-analysis of the deposited data

How the results depend on the processing

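The 1101 genes higher in HepG2 and the 1480 lower by 2-fold or more came to 1672 and 2082 with a pseudocount of 0.1 FPKM. They were 403 and 465 with 5 FPKM, and 722 and 797 when 5 FPKM was required in either control. With 1 FPKM required in both controls, chosen after seeing the data, they were 726 and 621, and 53.9% of the called genes were higher. At 1.5-fold the counts were 2291 and 2804 and at 4-fold 207 and 419. On the TPM scale 2302 were higher and 2056 lower, the median over all genes was 0.13 in place of -0.06, and 52.8% of the called genes were higher in place of 42.7%. The FPKM of the HepG2 and PLC/PRF/5 controls summed to 352221 and 409697, so rescaling enlarged all values. The pseudocount and the filter stayed at 1, so these counts reflect looser settings as well as equal sums. In the treated pair 575 were higher, which made 31.1% of the called genes. Both counts stayed within 1.5 times under median-of-ratios scaling (1085 and 1405), quantile normalization (1238 and 1346), no filter on low values, protein-coding genes alone and all gene classes. They also did so with 8% of HepG2 subtracted and with at least 100 fragments required (944 and 1262), both chosen after seeing the data. The 336 called genes checked one by one were those of the hand-written lists and those named by size of ratio or level. All that could be computed kept their direction in every setting on the controls, and some were chosen for a large ratio in these controls. In the treated pair 323 of 326 did. Of the 3 reversed, MSMO1 was at -0.27 and MVD at -0.41 on the log2 scale, and the cause was not tested. List medians changed sign on the TPM scale for cytochrome P450 (-0.37 to 0.05), growth factor (-0.23 to 0.09), mitosis (-0.12 to 0.09) and ZNF genes (-0.05 to 0.12). ZNF genes also gave 0.05 under quantile normalization, 0.03 with the subtraction and 0.04 at 5 FPKM. With 1 FPKM required in both controls the keratin list gave 0.28 in place of -0.57 and hepatocyte factors -0.02 in place of 0.02. Without a filter conjugation enzymes and matrix genes both gave -0.02. No paired analysis was possible because each group has 1 library.

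Depth limits low genes. With 16722204 and 21387301 fragments in the controls, a gene of 1 kb at 0 may lie anywhere below 0.179 and 0.140 FPKM. Without replicates, no spread between cultures of a line is known, and line, culture and library cannot be told apart.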

Other observations

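The serpin cluster on chromosome 14, from SERPINA10 to SERPINA3, held genes that were all higher in the HepG2 control where at 1 FPKM or more in either control. SERPINA5, the protein C inhibitor, was at 142, 109, 22.1 and 39.7 FPKM in the HepG2 control, treated HepG2, PLC/PRF/5 control and treated PLC/PRF/5. The kallistatin gene SERPINA4, whose gene model overlaps that of SERPINA5, was at 15.5, 9.89, 1.60 and 2.19 FPKM and SERPINA11 at 14.04, 9.89, 1.26 and 2.65 FPKM. SERPINA6, the cortisol-binding globulin, was at 83.2, 67.2, 35.3 and 31.2 FPKM and SERPINA12, the adipokine vaspin, at 2.995, 3.43, 0.370 and 0.957 FPKM. SERPINA10 was under 2-fold, at 5.70, 4.06, 2.54 and 1.54 FPKM.

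Promoter CpG content differed among sets of genes. A ratio of observed to expected CpG of 0.6 or more over 300 bases around the RefSeq start was found for 84.5% of all protein-coding genes compared and for 92.1% of those within 1.5-fold and at 5 FPKM or more in both controls. Among genes at 5 FPKM or more in one line and at most 0.25 of that in the other, the share was 49.7% of 191 promoters for those high in HepG2 and 67.9% of 293 for those high in PLC/PRF/5. The latter divided into 55.9% of the 93 under 1% of the PLC/PRF/5 level and 73.5% of the other 200. By list the share was 12.5% for plasma proteins, 20% for apolipoproteins, 6.67% for coagulation genes, 42.9% for cancer-testis antigens, 52.9% for chemokines and NF-kB targets, 60% for Wnt targets, 73.7% for p53 targets and 100% for metallothioneins, from 16, 10, 15, 14, 17, 10, 19 and 4 promoters. These shares describe the RefSeq sequence, and methylation was not measured.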
